A study of Arabidopsis thaliana with 20 samples.

Results

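Inflorescences of dvl1-1D, an Arabidopsis thaliana line with very high DVL1 expression, were compared with those of the Columbia wild type. The comparison covered every gene that reached at least 1 RPKM (reads scaled to the length of the gene and to the size of the library) in at least 3 of the 6 libraries, which held for 19712 of the 37336 genes in the deposited table. Both groups had 3 libraries, described by the submitters as independent biological replicates. The series held 20 samples in 5 groups, of which 5 (1 per group) had been excluded by the authors as outliers, without a stated criterion, so the spread within groups may be narrower than among all plants. The wild type is labelled Col. O and the mutant dvl1-1D, with no treatment, plant age or insertion site. Another group, 35S:DVL8, which expresses the related gene DVL8 from a strong viral promoter, was set beside dvl1-1D in a contrast that does not use the wild type. The fit and the wider comparisons also used the 2 quintuple mutants of the series, both mutated in dvl8, dvl11, dvl19 and rtfl11, with dvl1 as the other mutated gene in the first and rtfl9 in the second; with 35S:DVL8 they make up the remaining groups. Every group shares the tissue label of inflorescence apices, the oldest flower being at anthesis, although the extraction protocol also names flowers past anthesis.

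DVL1 belongs to the DVL/RTFL (DEVIL/ROTUNDIFOLIA FOUR-LIKE) family of plant-specific small proteins that sit at the plasma membrane. Loss of single members has little visible effect, whereas overexpression gives short plants with altered leaves and with fruits that carry prongs at the tip. In the literature dvl1-1D came from activation tagging, in which transcriptional enhancers inserted in the genome raise the expression of a nearby gene. Such enhancers can act on more than one neighbour, so a difference between dvl1-1D and wild type may come with DVL1 or with another gene at the locus, and these cannot be told apart here.

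Of the 19712 genes tested, 6230 (31.6%) differed between dvl1-1D and wild type at an adjusted p under 0.05 by limma. They divided into 3387 higher (17.2% of tested genes) and 2843 lower in dvl1-1D (14.4%), and these shares are the background for every list count given here. The filter itself let in 120 genes through dvl1-1D alone, with no wild-type library at 1 RPKM, and 40 genes through wild type alone. Such genes had to differ, so list counts are also given without them wherever a list held a called one. Tissue markers were compared first. Floral organ identity genes summed to 495.4 to 546.2 RPKM in the dvl1-1D libraries and to 499.8 to 518.9 in wild type, and 1 of 8 differed, the carpel and stamen gene AG (log2 fold change 0.37). Of 6 root markers, 1 passed the filter and CASP1 and EXPA7 were at 0. Of 7 seed markers, 1 passed, the embryo regulator FUS3 at 1.38 to 2.12 RPKM in dvl1-1D and 0.916 to 1.09 in wild type, while the storage protein genes CRU3 and SESA1 were at 0. Pollen markers summed to 706.8 to 964.3 RPKM in dvl1-1D and 660.0 to 735.9 in wild type, with 2 of 6 called higher. Against 35S:DVL8, 6 of 6 were called higher (median 0.58), beside 19.1% of all tested genes. In the remaining groups the pollen markers summed to 434.7 to 610.7 RPKM, so that contrast also carries a difference in tissue markers. Tapetum markers summed to 808.6 to 1027.0 in dvl1-1D and 619.7 to 667.3 in wild type, with 1 of 9 called higher, the pollen coat gene GRP17. GRP17 made up most of these sums, at a mean of 767.8 against 454.9 RPKM. The set as a whole was not raised, with a median log2 fold change of -0.08 and 4 of 9 above 0. Xylem markers summed to 184.7 to 193.9 and 153.2 to 158.3, with 3 of 7 called higher. Meristem markers summed to 75.6 to 81.6 and 63.6 to 65.5, with 2 of 3 tested called higher. Green tissue markers overlapped in their sums, at 12572.2 to 13431.2 and 12007.8 to 13829.8, with 1 of 7 called higher and 1 lower. The lower one, the Rubisco small subunit gene RBCS1B, stood at 135.7, 149.6 and 119.2 RPKM against 168.2, 209.4 and 210.7 (-0.54 ± 0.12). The calls of FUS3, of the meristem receptor kinase CLV1 and of 1 pollen marker, PPME1, were lost with some single libraries left out. In these bulk samples more cells of a type and more RNA per cell cannot be told apart, and the part of these marker differences in the results was not tested. Reads assigned to genes numbered 22752367 to 33367920 in wild type and 23116154 to 27080668 in dvl1-1D.

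DVL1 (AT5G16023, chromosome 5, 5232532 to 5233036, minus strand, RefSeq annotation of TAIR10.1) set the groups apart completely. It had 7142, 7176 and 7080 reads in the dvl1-1D libraries and 0 reads in each wild-type library. In RPKM it stood at 611.8, 524.7 and 542.6 in dvl1-1D. Set against 3 reads over the wild-type group, DVL1 was at least 7939-fold higher. On the log2(RPKM + 1) scale its fitted change was 9.13 (limma, adjusted p = 2.65e-18). DVL1 passed the filter through dvl1-1D alone and is the gene the line is named for, so that test adds nothing to the reads. The libraries therefore carry the difference their labels name. DVL8 stayed near the limit of detection in both groups, with 10 reads over the dvl1-1D group and 5 over wild type, and was not tested.

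Genes next to DVL1 were also higher in dvl1-1D. Within 10 kb on either side, 5 of 6 tested genes other than DVL1 were called and all 5 were higher, compared with 31.6% of all tested genes called. GEX3 passed the filter through dvl1-1D alone, and without it the count was 4 of 5. AT5G16030, which starts 4.9 kb beyond DVL1, stood at 44.3, 36.5 and 37.0 RPKM in dvl1-1D and at 16.9, 16.4 and 14.8 in wild type, without overlap (log2 fold change 1.24 ± 0.07, SE; adjusted p = 6.49e-07). The uncharacterized AT5G16010, on the other side, stood at 56.1, 47.3 and 54.0 against 31.3, 31.2 and 34.4 RPKM (0.68 ± 0.07). NIK1, a receptor-like kinase known from immunity to geminiviruses, stood at 14.3, 15.0 and 15.8 against 10.4, 9.78 and 10 (0.54 ± 0.05). GEX3, a gene of gamete membranes that lies 0.2 kb from DVL1, stood at 1.4 ± 0.234 RPKM against 0.516 ± 0.15 (SD, n = 3), and AT5G02515, which overlaps AT5G16030 on the other strand and so shares reads with it, rose by 0.94. The sixth gene, AT5G16040, did not pass the test (0.12, adjusted p = 0.0917). Farther out the share called was 45.5% of 11 genes at 10 to 30 kb, 43.8% of 16 at 30 to 60 kb and 20% of 15 at 60 to 100 kb, where all 3 calls were lower. Against 35S:DVL8, AT5G16030 was higher by 1.04, AT5G16010 by 0.59 and NIK1 by 0.50.

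**Figure D1:**
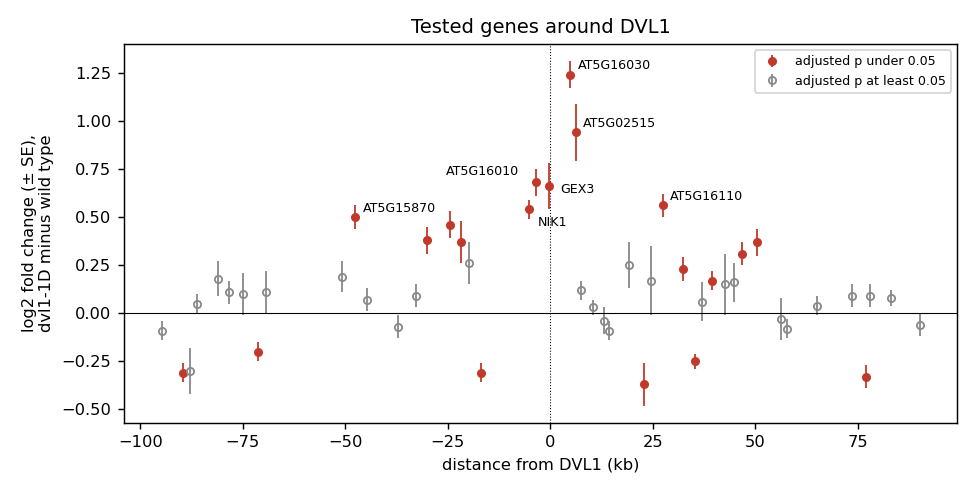
Log2 fold change of log2(RPKM + 1) in dvl1-1D minus wild type with its SE (vertical axis) for the tested genes within 100 kb of DVL1, by distance from DVL1 in kb (horizontal axis). The 5 called genes within 10 kb lie between 0.54 and 1.24, and the calls beyond 60 kb lie below 0.

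Beyond its locus the dvl1-1D response was broad and shallow. The median absolute log2 fold change of the called genes was 0.30, 693 genes were called with at least a 1.5-fold change, and 138 with at least a 2-fold change on the log2(RPKM + 1) scale. Of the 138, 113 were higher (0.573% of tested genes) and 25 lower (0.127%). In 9404 genes (47.7%) the 3 libraries of one group lay wholly above those of the other. The excess of higher calls, 54.4% of all calls, depended on scaling: with median-of-ratios scaling the share became 44.0% and with quantile normalization 44.6%, which moved the median of all genes from 0.02 to -0.01.

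The dvl1-1D libraries stood apart from the whole series and not from the wild type alone. On the leading principal component, with 39.7% of the variance, they lay at 28.6 to 33.2 and the 12 other libraries at -14.6 to -2.2. Of the 3387 genes called higher, 2318 (68.4%) had all 3 dvl1-1D libraries above all 12 other libraries, compared with 14.3% of all tested genes. Of the 2843 called lower, 2171 (76.4%) had all 3 below the other 12, compared with 12.7% of all tested genes. The reverse, with wild type as the group outside all 12 others, held for 72 of the higher calls (2.13%) and 33 of the lower calls (1.16%). These shares describe the called genes and are not a test, since the calls used the same libraries.

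**Figure D2:**
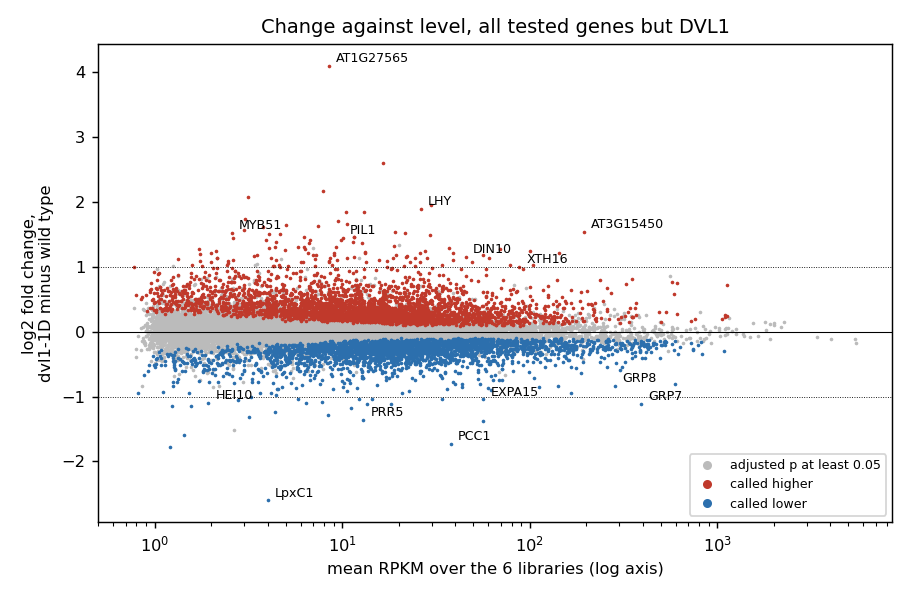
Log2 fold change in dvl1-1D minus wild type on the log2(RPKM + 1) scale (vertical axis) by mean RPKM over the 6 libraries on a log axis (horizontal axis), for all tested genes other than DVL1. Most called genes lie within 1 log2 unit of 0, and 113 called genes at or above 1 (DVL1 counted) face 25 at or below -1.

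After DVL1, the largest increases included the uncharacterized gene AT1G27565, the non-coding gene AT4G04223 and the clock gene LHY. AT1G27565 (chromosome 1, 9574550 to 9575189) was nearly silent in wild type at 0.0853, 0 and 0.0582 RPKM and reached 14.9, 17.1 and 18.9 RPKM in dvl1-1D. No library of the 3 remaining groups exceeded 0.14 RPKM. The gene passed the filter through dvl1-1D alone, as did AT1G19565 and AT1G74820, so their tests against wild type add nothing to these values. The non-coding gene AT4G04223 stood at 32.5, 24.9 and 30.2 against 4.48, 3.26 and 4.20 RPKM (2.60 ± 0.13), where the remaining groups reached 13.1. AT2G20670, annotated as a putative sugar phosphate exchanger, stood at 18.2, 15.0 and 17.5 against 3.97, 3.48 and 4.47 (1.85 ± 0.18). MAF5, a relative of the flowering repressor FLC, was even among the dvl1-1D libraries at 7.20, 7.45 and 7.16 RPKM and variable in wild type at 3.11, 1.02 and 1.99 (1.5 ± 0.22). In each of these genes the groups did not overlap, as the rule for naming the largest increases required. The 20 largest increases also held AT5G21940, BT5, AT1G19565, AT1G21525, AT1G21520, AT1G22890, AT1G78850, AT5G38005, GRP3S and AT3G06355, with log2 fold changes of 1.49 to 2.17. GRP3S, annotated as a short glycine-rich protein, was highest in replicate 1, at 65.4 RPKM beside 30.1 and 37.6, against 13.0 to 15.7 in wild type.

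Decreases were fewer and smaller. PCC1, a membrane-associated gene under pathogen and clock control, stood at 23.8, 16.6 and 12 RPKM in dvl1-1D and at 59.9, 54.3 and 60.3 in wild type (-1.73 ± 0.18, adjusted p = 2.34e-05), and the 9 libraries of the remaining groups at 38.4 to 67.0. AT4G16870 was even within both groups, at 7.49, 7.36 and 8.28 against 17.5, 16.7 and 16.5 RPKM (-1.04 ± 0.06, adjusted p = 6.49e-07). TPS03, a terpene synthase gene, stood at 3.34, 3.63 and 4.12 against 10.2, 9.29 and 7.73 (-1.10 ± 0.21). The groups did not overlap in these 3 genes, which the rule for naming the largest decreases required. LpxC1 had the largest fitted decrease (-2.60 ± 0.80, adjusted p = 0.0244), but the wild-type libraries spread from 3.95 to 12.5 RPKM, the gene has near-identical copies and passed the filter through wild type alone, and it lost its call without replicates 2 or 3 of dvl1-1D or 1 or 2 of wild type (-2.22 to -4.53 over all alternatives). The call of the non-coding AT5G00755 (-0.95) was also lost with single libraries left out, namely replicates 1 and 3 of dvl1-1D and 2 and 3 of wild type.

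With a minimum of 10 reads in each wild-type library, 2 genes had reads there and 0 in every dvl1-1D library. The non-coding AT2G05705 had 16, 19 and 22 reads in wild type, at least 17.1-fold more than the 3-read floor over the dvl1-1D group allows, and AT4G09455 had 55, 64 and 98 reads, at least 65-fold more. The remaining groups had 0 to 5 and 0 to 1 reads per library in these genes. Wild type, not dvl1-1D, is therefore the group that stands apart in both. DVL1 was the sole gene with at least 10 reads in each dvl1-1D library and 0 in wild type.

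**Figure D3:**
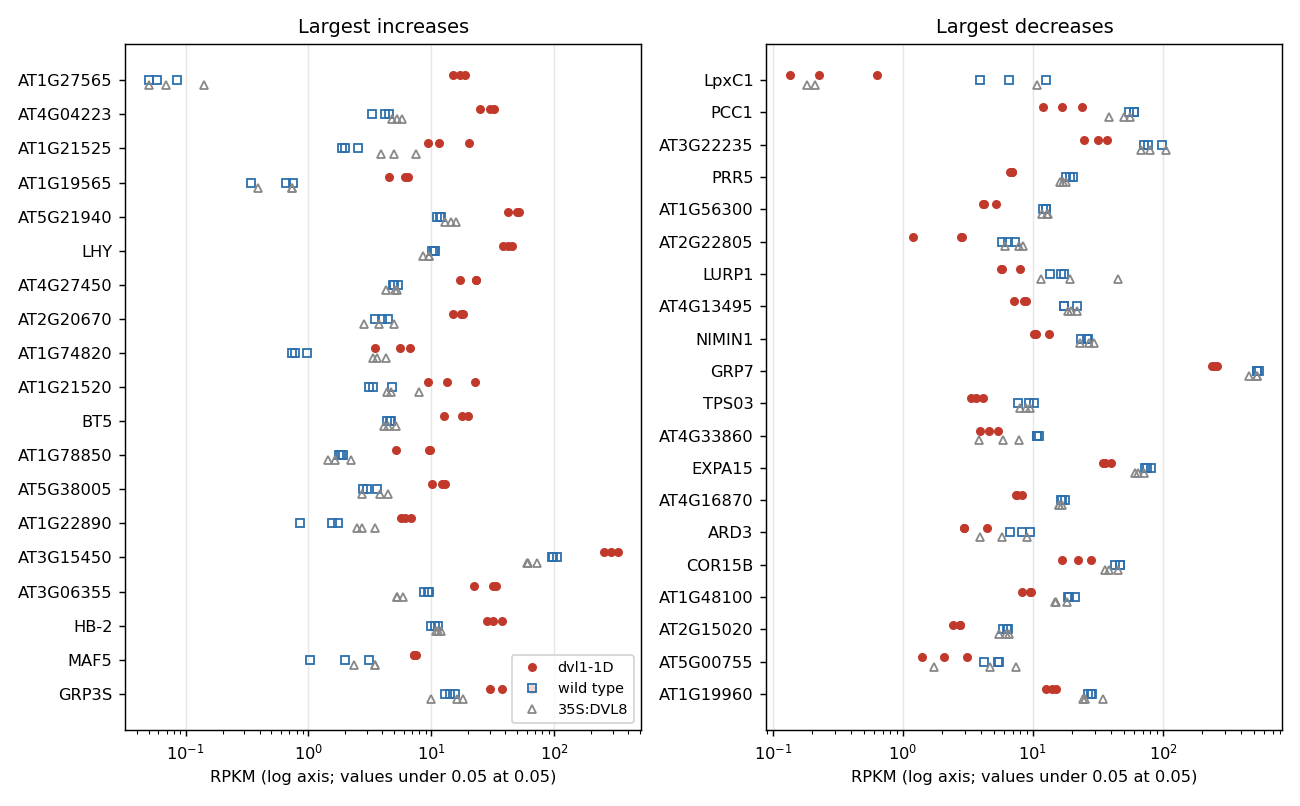
RPKM per library on a log axis (horizontal) for the 19 largest increases other than DVL1 and the 20 largest decreases (vertical), with dvl1-1D as red dots, wild type as blue squares and 35S:DVL8 as grey triangles; values under 0.05 are drawn at 0.05. The red and blue symbols do not overlap in any of these genes, which the rule for naming them required.

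Of the clock genes, 7 of 11 morning genes were higher in dvl1-1D, and 8 of 15 day and evening genes were lower. The plant clock is a loop of repressors: MYB proteins such as CCA1 and LHY act at dawn, PRR proteins follow through the day, and the evening complex closes the cycle, while RVE8 and the LNK proteins activate evening genes. Of 11 morning genes 7 rose and 1 fell (median log2 fold change 0.43, beside 0.02 for all tested genes), and of 15 day and evening genes 1 rose and 8 fell (median -0.21). Without FKF1 and PRR3, which passed the filter through wild type alone, 6 of 13 day and evening genes fell (median -0.18). Of 20 genes of clock output 8 rose and 5 fell (median 0.10). The sources used here do not state the hour of harvest, so a shift between the lines and a difference in the time of collection cannot be told apart.

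LHY (AT1G01060) was the most changed morning gene, at 44.9, 42.2 and 38.5 RPKM in dvl1-1D and 10.8, 10.6 and 10.2 in wild type (1.89 ± 0.21, adjusted p = 2.86e-05). The 9 libraries of the remaining groups held 8.11 to 18.5 RPKM, so dvl1-1D lay above all others. Its partner CCA1 moved far less, at 25.9, 24.5 and 24.3 against 20.7, 21.1 and 20.5 (0.25 ± 0.05, adjusted p = 0.0035). RVE8 stood at 17.6, 20.4 and 17.0 against 11.8, 9.88 and 10.6 (0.71 ± 0.10), and its close relative RVE4 at 43.4, 44.8 and 43.7 against 33.0, 31.4 and 32.9 (0.43 ± 0.04). The coactivator genes LNK3 (0.68), LNK2 (0.61) and LNK4 (0.59) rose and LNK1 fell by 0.14, a call lost without replicates 1 or 3 of dvl1-1D or 1 of wild type. LNK1, LNK2, LNK3 and LNK4 overlap other annotated genes, whose reads cannot be separated without strand. RVE1 (0.31), RVE7 (0.13) and RVE2 (-0.24) did not pass the test.

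Among the day and evening genes PRR5, a repressor of CCA1 and LHY, stood at 6.63, 6.96 and 6.85 RPKM in dvl1-1D and 20.5, 17.8 and 19.1 in wild type (-1.36 ± 0.16, adjusted p = 5.49e-05). The remaining groups lay at 11.4 to 21.6. The other members of its family differed: PRR7 fell slightly (-0.21), whereas PRR9 (-0.16, adjusted p = 0.178) and TOC1 (-0.13, adjusted p = 0.199) did not pass. PRR3 stood at 0.413, 0.705 and 0.455 against 1.45, 1.13 and 1.4. FKF1, the blue-light F-box protein of day-length sensing, stood at 0.698, 0.647 and 0.518 against 1.87, 2.01 and 1.74. Since both passed the filter through wild type alone, their groups could not overlap. GI, the partner of FKF1, stood at 14.5, 14.1 and 15.7 against 19.6, 20.1 and 20.1 (-0.41). JMJD5 (-0.47), ELF3 (-0.38) and ELF4 (-0.62) fell too, ELF4 with an adjusted p of 0.0429 that was lost with any of the 6 libraries left out. TCP21, a partner of TOC1, rose (0.28), a call lost without replicates 1 or 2 of wild type, and LUX, BOA, ZTL and LKP2 did not pass (-0.18 to 0.20).

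In the output list the RNA-binding protein genes GRP7 and GRP8, which peak late in the day, were lower. GRP7 stood at 239.5, 246.1 and 260.2 RPKM against 530.1, 546.9 and 532.0 (-1.11 ± 0.08, adjusted p = 2.7e-06), and GRP8 at 214.7, 203.5 and 194.1 against 360.2, 376.5 and 357.0 (-0.83 ± 0.08). CDF2, a DOF repressor of CONSTANS and FT, stood at 10.2, 10.1 and 9.24 against 4.85, 4.85 and 4.58 (0.91 ± 0.10). In none of the 3 did the groups overlap. The starch enzymes BAM3 (-0.48) and GBSS1 (-0.26) fell, and COL2 (0.40), BBX19 (0.38), PIF4 (0.20) and PIF5 (0.18) rose. In the contrast with 35S:DVL8, which shares the dvl1-1D libraries, 7 morning genes were higher and 1 lower, where 19.1% of all genes were higher and 14.2% lower, and 9 day and evening genes were lower. LHY differed from 35S:DVL8 by 2.06, PRR5 by -1.20 and GRP7 by -1.02.

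**Figure D4:**
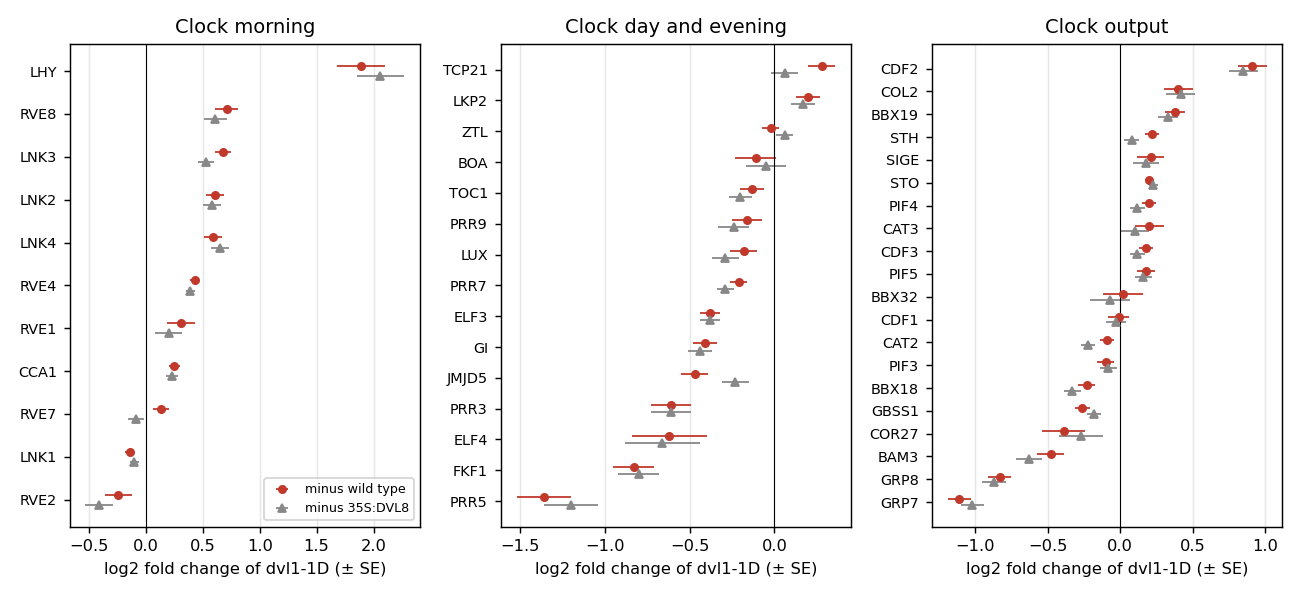
Log2 fold change with its SE on the log2(RPKM + 1) scale for the clock genes in 3 panels (morning, day and evening, output), for dvl1-1D minus wild type and dvl1-1D minus 35S:DVL8. LHY lies at 1.89 and 2.06 and PRR5 at -1.36 and -1.20, and the dvl1-1D libraries are shared by both contrasts.

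The promoters of these clock genes are shown because their sequences hold sites that clock proteins are known to bind, which is also how they were picked from the lists: the evening element AAAATATCT (AGATATTTT on the other strand), bound by CCA1, LHY and RVE8, and the G-box CACGTG, bound by PIF and other bHLH proteins and by bZIP proteins. Windows are from the 250 bases before the annotated gene start in TAIR10.1 (RefSeq), read 5′ to 3′ on the strand of the gene, with the motif in capitals. They lie at chr5:8358710-8358748 on the minus strand (PRR5), chr2:9266565-9266648 minus (GRP7), chr4:18275217-18275243 minus (GRP8), chr1:25508438-25508476 plus (FKF1), chr1:37931-37966 minus (LHY) and chr5:15878606-15878641 plus (CDF2).
PRR5: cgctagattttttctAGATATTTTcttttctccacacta
GRP7: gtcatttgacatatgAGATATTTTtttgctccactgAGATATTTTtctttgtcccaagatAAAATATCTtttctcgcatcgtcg
GRP8: aagatattcttacaaAGATATTTTttg
FKF1: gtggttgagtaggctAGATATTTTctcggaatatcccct
LHY: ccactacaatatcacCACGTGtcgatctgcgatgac
CDF2: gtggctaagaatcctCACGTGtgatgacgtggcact
The first 4 of these genes were lower in dvl1-1D and hold the evening element, 3 copies of it in GRP7. The last 2 were higher and hold the G-box. Across the lists neither motif followed direction closely. The G-box was found in 3 of the 7 raised morning genes, LNK3 with 2 copies among them, and 2 of the 3 in that list that did not pass. It was found in 3 of the 6 day and evening genes that did not pass and 1 of the 8 that were lowered. In the output list 2 of the 8 raised genes held it, 0 of the 5 lowered and 0 of the 7 that did not pass. The evening element was found in 2 of the 8 lowered day and evening genes and 3 of the 6 in that list that did not pass. In the output list 2 of the 5 lowered genes held it, 2 of the 8 raised and 2 of the 7 that did not pass. The evening element occurred in 2.54% of all 19638 tested promoters, 4.22% of those of lowered genes and 2.16% of those of raised genes. Among the genes at least 2-fold lower it was present in 3 of 25. These matches describe letters in the window and do not show binding.

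Genes induced by sugar shortage or darkness were higher in dvl1-1D. When carbon runs short the kinase SnRK1 and bZIP factors raise genes for the use of stored and cellular reserves, the DIN (dark-inducible) genes among them. Of 21 tested members 14 rose (median 0.57), and 0 fell by limma, with 0 lower also at an unadjusted p under 0.05 and by voom. DIN10, a raffinose synthase family gene, stood at 74.7, 54.5 and 60.6 RPKM in dvl1-1D and 29.7, 27.2 and 26.5 in wild type (1.15 ± 0.18, adjusted p = 0.000333), but it overlaps another annotated gene. BZIP63, a target of SnRK1, stood at 35.2, 34.7 and 29.0 against 16.0, 15.6 and 15.9 (1.01 ± 0.12), and BZIP1 at 11.3, 10.3 and 10.4 against 5.62, 5.61 and 6.97 (0.72 ± 0.10). The trehalose phosphate synthase-like genes rose together: TPS8 (0.72), TPS11 (0.68), TPS9 (0.58) and TPS10 (0.57). AKINBETA1, a regulatory subunit of SnRK1, rose from 13.7 to 15.7 RPKM across the wild-type libraries to 24.0 to 25.9 (0.69 ± 0.10). SEN1, a dark-induced gene, stood at 3.92, 3.60 and 3.60 against 1.78, 1.81 and 2.14 (0.69 ± 0.14), and DYL1, a dormancy gene, rose by 0.60. ASN1, the asparagine synthetase gene often used as a marker of darkness, did not pass (0.18), and neither did DRM2 (0.23) nor BGAL4 (0.59, adjusted p = 0.0737). Against 35S:DVL8, 16 members were higher. AT3G15450 and AT4G27450, paired by annotation as aluminium-induced proteins and not in the list, were among the 20 largest increases: AT3G15450 stood at 328.3, 287.2 and 255.0 against 96.9, 105.2 and 94.9 RPKM (1.54) and AT4G27450 at 23.2, 17.1 and 23.2 against 4.98, 4.88 and 5.37 (1.85), both of them overlapping other annotated genes.

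Light and shade genes were also mostly higher, with 10 of 15 called higher (median 0.35) and 0 lower by limma, 1 at an unadjusted p under 0.05 and 0 by voom. HB-2 (ATHB2), a homeodomain gene of the shade response, stood at 37.5, 28.4 and 31.5 RPKM against 10.7, 11.3 and 9.91 (1.52 ± 0.15, adjusted p = 1.54e-05), above the 10.8 to 19.2 of the remaining groups. PIL1, a bHLH gene with the same kind of response, stood at 17.3, 13.8 and 14.6 against 5.16, 4.79 and 4.84 (1.45 ± 0.20). The shade-induced inhibitors PAR1, at 13.4, 12.3 and 11.7 against 7.12, 6.82 and 5.93 (0.82), and PAR2 (0.79) rose as well, although HFR1, another such inhibitor, did not pass (0.18). Photoreceptor genes rose less: PHYB (0.42), CRY1 (0.35), PHYA (0.34) and CRY2 (0.26). ELIP2, an early light-induced gene, rose by 0.71, while HY5, HYH, COP1 and SPA1, which act downstream of the photoreceptors, did not pass (-0.20 to -0.03). HB-2 differed from 35S:DVL8 by 1.43 and PIL1 by 1.71.

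**Figure D5:**
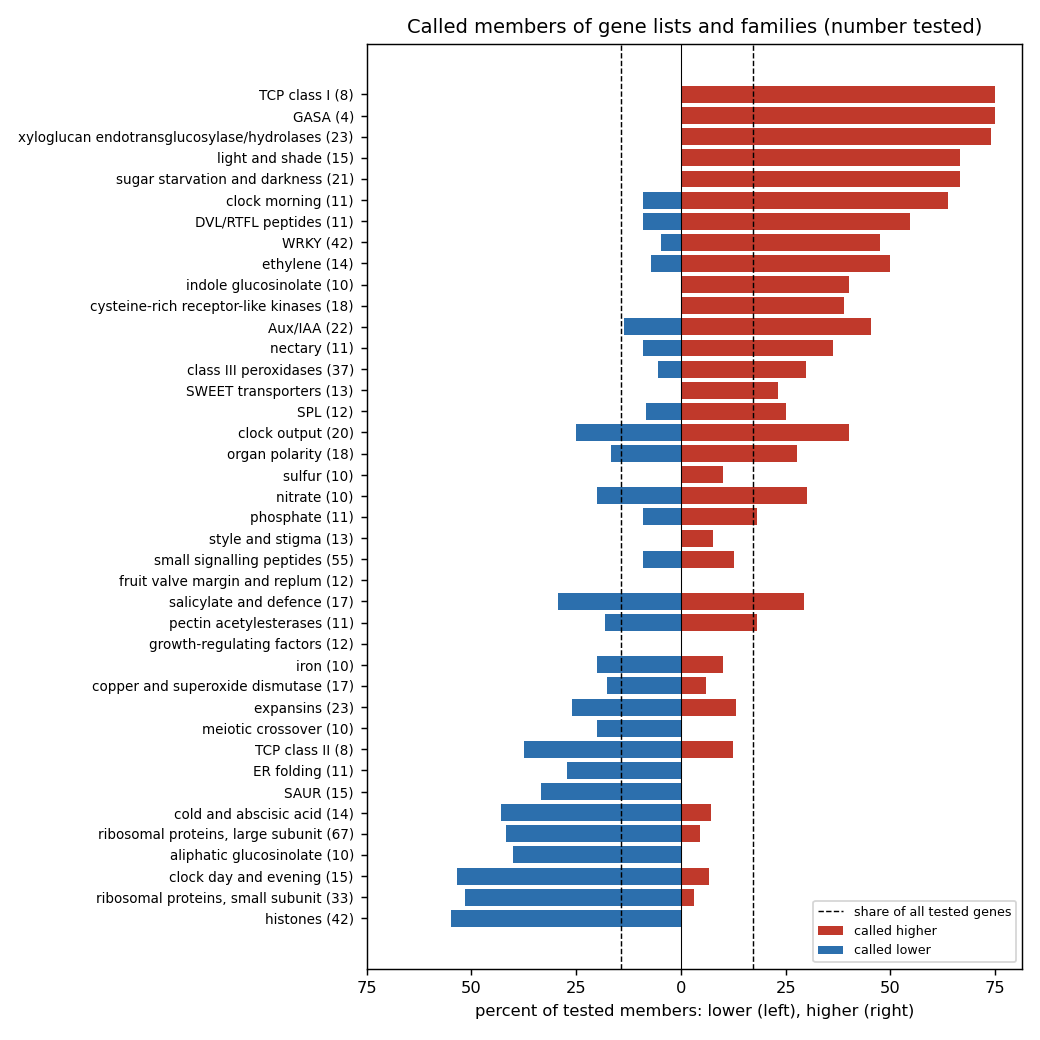
Percent of tested members called higher and lower in dvl1-1D against wild type (horizontal axis) for each gene list or family (vertical axis), with dashed lines at the shares of all tested genes, 17.2% higher and 14.4% lower. Xyloglucan endotransglucosylase/hydrolases (17 of 23 higher), sugar starvation genes (14 of 21 higher) and histones (23 of 42 lower) lie farthest to their side among the lists of more than 20 tested genes.

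Xyloglucan endotransglucosylase/hydrolases (XTH), enzymes that cut and rejoin the xyloglucan tethers of the primary wall, were mostly higher. Of 23 tested members 17 were called higher (median 0.46) and 0 lower by limma, 2 at an unadjusted p under 0.05 and 0 by voom; with median-of-ratios scaling 13 were higher. Without XTH25, which passed the filter through dvl1-1D alone, 16 of 22 were higher. XTH16 stood at 116.9, 94.8 and 141.6 RPKM in dvl1-1D and 57.7, 55.8 and 59.2 in wild type (1.00 ± 0.13, adjusted p = 0.000104). XTH15 stood at 20.8, 20.5 and 29.4 against 10.9, 11.4 and 11.5 (0.99), though it overlaps another gene, and TCH4, the touch-inducible member, at 9.50, 7.69 and 11.7 against 3.95, 3.09 and 3.56 (1.21 ± 0.27). EXGT-A3, a broadly expressed member, was even within both groups, at 41.0, 39.5 and 38.1 against 27.3, 25.3 and 26.0 (0.58 ± 0.09). The most abundant of those called by at least 0.5 was XTH24, at 325.4 ± 36.7 RPKM against 215.3 ± 19.5 (SD, n = 3), whose call (0.59, adjusted p = 0.0484) was lost with any of the 6 libraries left out. XTH10, XTH32, XTH29, XTH19, XTH7 and XTH5 did not pass. Against 35S:DVL8, 13 members were higher, and TCH4 did not differ beyond the spread (0.41 ± 0.27, adjusted p = 0.268).

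Other wall families did not move in a single direction. Expansins, proteins that loosen the wall, had 3 of 23 higher and 6 lower (median 0.07). EXPA15 stood at 34.4, 39.6 and 36.0 RPKM against 72.7, 80.8 and 75.1 (-1.04 ± 0.08, adjusted p = 2.3e-06) and EXPA10 (-0.49) and EXPB3 (-0.39) fell, while the 3 that rose were the expansin-like genes EXLA2 (0.62), EXLA1 (0.54) and EXLB1 (0.51). Of these 3, EXLA2 alone kept its call with each single library left out. Class III peroxidases, which cross-link or loosen walls with hydrogen peroxide, had 11 of 37 higher and 2 lower (median 0.21), or 10 and 2 of 35 without the genes that passed the filter through 1 group alone. AT5G64120 stood at 46.3, 36.0 and 29.0 against 15.9, 15.3 and 14.4 (1.21 ± 0.17), and PA2 at 12.9, 11.1 and 11.7 against 6.95, 6.33 and 6.10 (0.79 ± 0.09), whereas AT4G16270 fell (-0.55). AT5G19880 (0.91, adjusted p = 0.0362) lost its call when any library but wild type replicate 1 was left out, and without dvl1-1D replicate 3 the family had 7 higher calls. Pectin acetylesterases had 2 of 11 higher and 2 lower. Outside these families the pectin lyase-like gene AT1G48100, among the 20 largest decreases, stood at 8.2, 9.46 and 9.73 against 18.9, 21.2 and 18.7 RPKM (-1.03 ± 0.08) and overlaps another annotated gene.

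Growth regulators of the TCP family split by class. Class I TCP proteins are mostly known as promoters of cell division and elongation, and class II, the CIN and CYC/TB1 types, as brakes on proliferation. Of 8 tested class I genes 6 rose by small amounts (median 0.24), with 0 lower by limma, at an unadjusted p under 0.05 and by voom; after median-of-ratios scaling 5 rose. TCP15 stood at 54.2, 51.8 and 56.5 RPKM against 48.0, 44.1 and 42.9 (0.26 ± 0.05), and TCP23, TCP22 and TCP14 rose by 0.30, 0.28 and 0.22. Of 8 tested class II genes 3 fell and 1 rose (median -0.12), and after either scaling 4 fell and 0 rose, as TCP5 (0.36) then lost its call, as it also did without 5 of the 6 libraries in turn, and it had passed the filter through dvl1-1D alone. TCP4 stood at 8.65, 9.35 and 10.5 against 16.6, 17.0 and 15.2 (-0.72 ± 0.11, adjusted p = 0.000337), and TCP1 at 2.00, 1.86 and 1.88 against 3.64, 3.61 and 4.02 (-0.71 ± 0.13). In 35S:DVL8 TCP4 stood at 10.3, 13.3 and 10.5 and TCP1 at 2.42, 1.88 and 1.83, which did not differ from dvl1-1D beyond the spread (-0.23 ± 0.11 and -0.06 ± 0.13, adjusted p = 0.134 and 0.765). Growth-regulating factors, which promote cell division in young organs, gave 0 calls in 12 genes by limma (0 higher and 3 lower at an unadjusted p under 0.05, 0 by voom), and 3 were lower after either scaling.

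Hormone-linked families gave mixed counts. Of 22 Aux/IAA repressors of auxin signalling 10 rose and 3 fell (median 0.17), with IAA14 (0.51) the largest increase and IAA5, at 1.88, 1.65 and 1.64 RPKM against 3.21, 3.37 and 3.22, the largest decrease (-0.65 ± 0.11). SAUR genes, early auxin genes of cell expansion, ran the other way: 5 of 15 fell (median -0.24) and 0 rose by limma, at an unadjusted p under 0.05 or by voom. SAUR26 stood at 5.35, 4.82 and 4.73 against 6.79, 7.64 and 8.21 (-0.52 ± 0.09); without wild type replicate 2 the family had 2 calls and without dvl1-1D replicate 2 it had 3. Of 14 ethylene genes 7 rose and 1 fell (median 0.23). ETR2, an ethylene receptor, stood at 7.69, 6.24 and 8.03 against 4.71, 4.87 and 4.74 (0.52 ± 0.08), and EFE, an enzyme of the last step of ethylene synthesis, at 40.1, 35.6 and 39.8 against 26.2, 26.4 and 27.9 (0.51 ± 0.10). The signalling genes EIN2 (0.24), EIN3 (0.23) and EIL1 (0.44) rose, and the F-box gene EBF1 fell (-0.14), a call lost without replicate 3 of either group. Of 4 gibberellin-regulated GASA genes 3 rose, GASA1 most, from 52.1 to 52.8 RPKM across the wild-type libraries to 89.7 to 94.0 (0.79 ± 0.11); 0 fell by limma, at an unadjusted p under 0.05 or by voom, and 1 rose without dvl1-1D replicate 1.

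Genes of fruit shape, which the prongs of DVL-overexpressing plants make of interest, gave few calls in these inflorescences. Of 12 tested genes of the valve margin and replum, among them SHP1, SHP2, IND, FUL and RPL, 0 were called in either direction by limma, at an unadjusted p under 0.05 or by voom, with log2 fold changes of -0.18 to 0.32. Of 13 style and stigma genes NGA4 alone rose, at 1.64, 1.52 and 1.72 RPKM against 0.921, 0.804 and 1.06 (0.45 ± 0.10); 0 fell by limma, at an unadjusted p under 0.05 or by voom. Organ polarity genes gave 5 higher and 3 lower of 18 (median 0.02), with 3 higher without dvl1-1D replicate 1 or wild type replicates 2 or 3. The abaxial genes YAB3 (-0.37), YAB1 (-0.33) and KAN2 (-0.32) fell, YAB5 rose (0.56 ± 0.14), and the adaxial HD-ZIP III genes CNA (0.44), HB-8 (0.22) and PHV (0.21) rose, whereas REV (-0.09) and PHB (0.08) did not pass. Of 12 SPL genes of phase change 3 rose, SPL12 by 0.30 and SPL14 by 0.25 among them, and SPL9 fell, from 83.3, 76.8 and 76.2 to 61.1, 61.7 and 66.4 RPKM (-0.32 ± 0.06).

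Nectary genes rose in part. Of 11 tested 4 rose and 1 fell (median 0.09). SWEET9, the sucrose exporter of nectaries, stood at 74.4, 80.7 and 78.8 RPKM in dvl1-1D and 39.1, 38.5 and 40.1 in wild type (0.97 ± 0.11, adjusted p = 3.79e-05). CWINV4, the cell wall invertase of nectar secretion, stood at 34.7, 38.5 and 36.9 against 19.4, 21.7 and 20.8 (0.80 ± 0.07). CRC, the YABBY gene that nectaries need to form, stood at 30.3, 30.8 and 29.7 against 20.8, 19.2 and 20.3 (0.57 ± 0.08), with an overlapping gene annotated at its locus. JMT rose by 0.33 and MYB24, a stamen gene, fell (-0.60), a call lost without wild type replicate 1; BOP1, BOP2, MYB21, MYB57, PIN6 and TPS21 did not pass. In 35S:DVL8 SWEET9 held 69.7, 49.4 and 67.2 RPKM, and its difference of 0.34 lost its call without 35S:DVL8 replicate 2 or dvl1-1D replicates 2 or 3. The call was also lost with median-of-ratios scaling, with no filter on low values and with only the libraries compared. CWINV4 was higher than in 35S:DVL8 by 0.50 and CRC by 0.40. Of 13 SWEET genes tested, 3 rose and 0 fell by limma (1 at an unadjusted p under 0.05, 0 by voom), namely SWEET9, SWEET3 (0.41) and SWEET10 (0.38).

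Defence genes moved both ways, and the calls of the higher ones depended on single libraries. The salicylate and defence list had 5 of 17 tested genes higher and 5 lower (median 0.35). The 5 that fell were PCC1, LURP1, NIMIN1, NIMIN-2 and PBS3; NIMIN1, which restrains the salicylate receptor NPR1, stood at 10.1, 10.5 and 13.2 RPKM against 26.5, 23.4 and 26.1 (-1.11 ± 0.12, adjusted p = 3.2e-05), and the count of lower calls was 5 with each single library left out. Without the 2 genes that passed the filter through dvl1-1D alone, GRX480 among them, 4 of 15 rose and 5 fell. The 5 that rose were PAD4 (0.66), GRX480 (0.54), EDS1 (0.53), SAG101 (0.43) and NPR1 (0.32). PAD4, a lipase-like partner of EDS1, stood at 18.8, 11.3 and 10.7 against 8.42, 7.47 and 8.08, so that replicate 1 of dvl1-1D was far above the other 2, and without it the higher calls fell from 5 to 0. They numbered 2, 2 and 1 without wild type replicates 1, 2 and 3, and 3 without dvl1-1D replicate 3. BGL2 (PR2), a glucanase gene induced by salicylate, showed the same spread, at 53.3, 21.4 and 15.6 against 13.5, 8.57 and 8.2 (1.33 ± 0.58), and did not pass (adjusted p = 0.0965).

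WRKY transcription factors, many of them induced by pathogens, had 20 of 42 higher and 2 lower (median 0.27), or 19 and 2 of 41 without WRKY22, which passed the filter through dvl1-1D alone. WRKY18 stood at 10.8, 9.17 and 9.1 RPKM against 5.08, 4.82 and 4.58 (0.87 ± 0.13), WRKY60, its close relative, at 8.2, 6.5 and 7.67 against 4.79, 4.24 and 4.63 (0.60 ± 0.09), and WRKY54 fell, at 6.10, 4.98 and 5.73 against 10.9, 9.60 and 9.75 (-0.75 ± 0.14). The higher calls fell to 11 without dvl1-1D replicate 1, 12 without wild type replicate 2 and 13 without wild type replicate 3. Cysteine-rich receptor-like kinases had 7 of 18 higher (median 0.45) and 0 lower by limma, 1 at an unadjusted p under 0.05 and 0 by voom. CRK2 stood at 16.7, 12.9 and 15.6 against 9.62, 8.70 and 8.39 (0.69 ± 0.10), and 6 of 16 were higher without the 2 genes that passed the filter through dvl1-1D alone. The family had 3 higher calls without dvl1-1D replicate 1 and 4 without wild type replicate 3.

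Glucosinolates, the mustard oil precursors of the Brassicaceae, come in aliphatic and indole forms. MYB51, the activator of the indole branch, stood at 5.79, 3.99 and 3.23 RPKM against 0.813, 0.806 and 0.839. It passed the filter through dvl1-1D alone, so its groups could not overlap. CYP83B1, an enzyme of that branch, stood at 57.8, 42.5 and 38.7 against 31.9, 27.7 and 27.6 (0.64 ± 0.15). With CYP79B2 (0.43) and SOT16 (0.21) these made 4 of 10 indole genes higher (median 0.03), or 3 of 9 without MYB51 (median 0.01), and 0 were lower by limma (2 at an unadjusted p under 0.05, 0 by voom; 2 after median-of-ratios scaling). MYB29, an activator of the aliphatic branch, stood at 3.97, 3.48 and 3.51 against 6.53, 7.29 and 7.27 (-0.79 ± 0.17). Of 10 aliphatic genes 4 fell (median -0.37) and 0 rose by limma, at an unadjusted p under 0.05 or by voom. That count is loose, with 1 lower without replicate 1 of dvl1-1D or replicates 2 or 3 of wild type, and 2 without replicates 2 or 3 of dvl1-1D. Against 35S:DVL8, 7 of the 10 aliphatic genes were lower in dvl1-1D, MYB29 among them (-0.83), and of the 10 indole genes 1 was higher and 4 were lower.

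Cold and abscisic acid genes were lower on balance, with 6 of 14 called lower and 1 higher (median -0.32). COR15B, which protects chloroplast membranes in the cold, stood at 16.8, 22.1 and 27.7 RPKM against 42.8, 46.9 and 47.0 (-1.03 ± 0.15) and overlaps another gene, and COR15A beside it at 80.0, 89.6 and 128.3 against 146.8, 142.1 and 139.8 (-0.55 ± 0.14). RAB18, a dehydrin of the abscisic acid response, stood at 7.65, 9.02 and 9.27 against 13.3, 14.7 and 14.8 (-0.67 ± 0.09) and also overlaps another gene. RD29A fell (-0.66), and so did the phosphatase genes HAI2 (-0.55) and HAI1 (-0.53). The gene that rose, KIN1 (0.37), lies 21.7 kb from DVL1, and its call was lost without replicates 1 or 3 of dvl1-1D or 1 or 2 of wild type.

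Ribosomal protein and histone genes, abundant in dividing cells, were lower by small amounts. Of 33 tested genes of the small ribosomal subunit 17 fell and 1 rose (median -0.15), and of 67 of the large subunit 28 fell and 3 rose (median -0.14), or 28 and 2 of 66 without AT5G24510, which passed the filter through dvl1-1D alone. AT3G04840, for ribosomal protein S3Ae, stood at 396.8, 402.4 and 393.1 RPKM against 516.1, 473.7 and 485.4 (-0.31 ± 0.04, adjusted p = 0.000141), and AT3G28900, for L34e, at 65.6, 65.9 and 64.6 against 87.1, 81.7 and 85.0 (-0.37 ± 0.05). RPSAb fell most in the small subunit (-0.50) and AT3G44590 in the large one (-0.50). Of 42 tested histone genes 23 fell (median -0.20) and 0 rose by limma, at an unadjusted p under 0.05 or by voom. AT4G40030, a histone superfamily gene of high level, stood at 208.4, 237.8 and 239.8 against 282.6, 302.0 and 292.8 (-0.36 ± 0.05), below the 293.1 to 315.0 of the remaining groups. The direction held after both scalings, with 21 and 13 small-subunit, 36 and 22 large-subunit and 29 and 22 histone genes lower with the 2 scalings (median of ratios, then quantile). Histone and ribosomal protein genes include near-identical copies whose reads the counting may have split. Against 35S:DVL8, 16 small-subunit, 32 large-subunit and 26 histone genes were lower.

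Other members of the DVL/RTFL family rose beside DVL1. Of 11 tested members 6 were higher and 1 was lower, or 5 and 1 of 10 without DVL1, which passed the filter through dvl1-1D alone (median 0.26); the median of all 11 was 0.34, the value of RTFL6, so the size given to DVL1 does not enter it. RTFL1 stood at 8.76, 7.57 and 8.25 RPKM against 3.77, 3.76 and 3.86 (0.94 ± 0.13, adjusted p = 0.000133), above the 3.70 to 5.94 of the remaining groups. RTFL16 stood at 37.4, 35.8 and 36.7 against 24.6, 22.3 and 22.9 (0.64 ± 0.05, adjusted p = 2.7e-06), with the remaining groups at 20.7 to 26.7. ROT4, the gene of the dominant ROTUNDIFOLIA4 leaf mutant, stood at 10.2, 5.48 and 4.38 against 2.64, 2.48 and 2.91 (0.99 ± 0.22), with replicate 1 well above the others. In all 3 genes dvl1-1D did not overlap with wild type. RTFL17 (0.42) and RTFL6 (0.34) rose less and did not pass the test against 35S:DVL8, and RTFL5 fell, at 2.43, 1.97 and 2.28 against 3.29, 2.75 and 2.74 (-0.28), a call lost without replicate 2 of dvl1-1D or 1 or 3 of wild type. Of 55 tested small signalling peptides of other families, such as CLE, RALF, PSK and EPF, 7 rose and 5 fell (median 0.05), with RGF9, a root meristem growth factor, at 13.1, 14.5 and 10.9 against 19.4, 19.1 and 18.1 (-0.53 ± 0.11).

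Set directly against 35S:DVL8, dvl1-1D differed in 6568 of the 19712 genes (33.3%), 3774 higher (19.1%) and 2794 lower (14.2%). The contrast shares the dvl1-1D libraries with that against wild type. Named genes called in it included AT4G04223 (2.26), LHY (2.06), PIL1 (1.71), HB-2 (1.43), PCC1 (-1.44), NIMIN1 (-1.17) and EXPA15 (-0.82). A few did not pass. AT1G74820, a cupin gene, stood at 5.60, 6.74 and 3.46 RPKM in dvl1-1D, 0.740, 0.772 and 0.970 in wild type and 4.28, 3.37 and 3.62 in 35S:DVL8, so both overexpression lines lay above wild type (0.37 ± 0.18 between them, adjusted p = 0.138). AT4G33860, a glycosyl hydrolase gene, was highest in wild type, above all 9 libraries of the remaining groups (3.83 to 8.68), and stood at 5.37, 4.62 and 3.91 in dvl1-1D and 7.78, 3.83 and 5.89 in 35S:DVL8, against 10.8, 10.8 and 11.2 in wild type (-0.24 ± 0.18 between the lines, adjusted p = 0.317). A difference that misses the threshold does not show that the lines are alike in these genes.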

How the data were processed

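RNA from inflorescences was read as pairs on an Illumina NovaSeq, per the labels' protocols. The authors deposited a table of RPKM per gene. Cutadapt, HISAT2 and HTSeq are named, without versions, in the submitters' processing notes, and reads were counted without regard to strand (per the name the authors gave the deposited file), so overlapping genes are uncertain. Overlap is not stated above for every gene it applies to. Further genes with it include FKF1, RVE1, IAA5, SPL9, MYB24, EXLA1, RPSAb, BT5, LpxC1, AT4G16270, AT3G28900, AT3G44590, AT5G21940, AT3G06355 and AT1G74820. The genome build they mapped to is not stated in the sources used here. Names and coordinates come from the RefSeq annotation of TAIR10.1, which matched 37051 of the 37336 identifiers.

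The RPKM steps of all 29911 genes above 0 (100%) came out as whole reads to within 0.005. Reads per library are those recovered reads, and floors of 3 reads cover counting error only. Libraries of a group differed by more than sampling noise (chi-square per gene 2.41 to 6.91) and all were kept.

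Tests on log2(RPKM + 1) used limma (version 3.58.1; R version 4.3.3), with its trend option, fitted to 15 libraries with a mean per group. P-values are two-sided and adjusted by Benjamini-Hochberg over the 19712 genes, with a threshold of 0.05. Fold changes on this scale understate low genes. A permutation test of 3 against 3 libraries cannot go below 0.1. The fit was also run on simulated reads in which a small set of genes changed 2-fold. That setting does not cover the smaller changes that make up most calls here.

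The genes compared, 50 lists and families and the tests were chosen with earlier results of these data known, and some family definitions were narrowed after reading annotation names. Named genes are DVL1 and DVL8, the 20 largest increases and decreases among called genes without overlap and with a mean of at least 5 RPKM in the higher group, called list members with a log2 fold change of at least 0.5 in size (otherwise up to 4 with the smallest p), and genes read in a single group. Other members are named after their values were seen, to complete a list. Lists are described by counts, with no set test. Alternatives were a pseudocount of 0.1, other filters, scalings, library weights, a replicate block, voom on recovered reads and left-out libraries. Protein sequences were not used here.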

Additional observations from a re-analysis of the deposited data

How the results depend on the processing

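The number of genes called against wild type kept within 1.5 times the 6230 of the chosen settings under all 15 alternatives, with 4819 to 5249 calls when single libraries were left out; against 35S:DVL8 it was 5190 to 5695. The number of genes changed at least 2-fold rose from 138 to 283 with a pseudocount of 0.1 and to 295 by voom on recovered reads, since the pseudocount of 1 shrinks low genes. The share of calls that were higher, 54.4%, turned to 44.0% with median-of-ratios scaling and 44.6% with quantile normalization, so the balance of directions is not settled. Of 167 named genes other than DVL1, 140 were called in the same direction under every alternative that kept them, and 1294 of 1500 list counts stayed within 1.5 times. Same-numbered dvl1-1D and wild-type libraries deviated together little (correlations 0.106, 0.016 and 0.008), so the numbers were not taken as pairs; a fit with the replicate number as a block made 6337 calls, 5866 of them shared with the fit without it. With 3 libraries per group and a median SE of 0.08, small changes of low genes were not detectable at this depth. The hour of harvest, the criterion by which samples were left out and the insertion site are not given in the sources used here.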

Other observations

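Nutrient lists are to be read beside the 17.2% higher and 14.4% lower of all tested genes in dvl1-1D. Of 11 phosphate genes 2 rose and 1 fell: MGD3, a galactolipid synthase induced by phosphate shortage, stood at 3.36, 2.47 and 3.40 RPKM against 1.58, 1.94 and 1.48 in wild type (0.61 ± 0.13), and SPX3, a phosphate sensor gene, at 1.28, 1.29 and 1.23 against 0.480, 0.689 and 0.425. SPX3 passed the filter through dvl1-1D alone, and without it 1 of 10 rose. Of 10 nitrate genes 3 rose and 2 fell, so that 50% were called beside 31.6% of all tested genes, with nitrite reductase NIR1 at 43.3, 42.6 and 33.3 against 58.5, 69.1 and 72.0 (-0.73 ± 0.11) and the transceptor NRT1.1 higher (0.47). Of 10 iron genes 1 rose and 2 fell, the ferritin gene FER3 at 48.2, 51.6 and 39.9 against 67.7, 67.3 and 72.0 (-0.57 ± 0.07). Of 10 sulfur genes SHM7 alone rose (0.26), with 0 lower by limma, at an unadjusted p under 0.05 or by voom. Of 17 copper and superoxide dismutase genes 1 rose and 3 fell, FSD3 at 42.7, 46.9 and 43.0 against 62.0, 58.8 and 61.5 (-0.45 ± 0.06), and without replicate 3 of either group 1 fell. Of 11 genes of protein folding in the endoplasmic reticulum, the chaperones BIP1 (-0.30), BIP2 (-0.25) and CNX1 (-0.26) fell and 0 rose by limma (2 at an unadjusted p under 0.05, 1 by voom).

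Of 10 tested genes of meiotic crossover formation 2 fell, HEI10 and ASY3 (-0.25), or 1 with any single library left out, and 0 rose by limma (1 at an unadjusted p under 0.05, 0 by voom). HEI10, a RING protein that marks crossover sites, stood at 0.807, 0.967 and 0.808 RPKM in dvl1-1D and 3.30, 2.49 and 3.23 in wild type. It passed the filter through wild type alone, and without it 1 of 9 crossover genes fell. The 9 libraries of the remaining groups held 1.1 to 1.62, so wild type lay above every other library and dvl1-1D below every other library. In 35S:DVL8 HEI10 stood at 1.16, 1.14 and 1.1, and its difference from dvl1-1D did not pass (-0.20, limma, adjusted p = 0.133). That does not show that the 2 lines are alike, since the log2(RPKM + 1) scale shrinks changes at this level. HEI10 overlaps another annotated gene. Among the 25 genes at least 2-fold lower in dvl1-1D, wild type lay above all 12 other libraries in 4 (16%). Among the 113 at least 2-fold higher it lay below them in 7 (6.19%). The shares of all tested genes were 0.315% and 0.472%. The 25 and 113 genes were picked by their difference from the same wild-type libraries, which by itself raises these shares, so they describe the genes and are not a test.

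The called genes were not spread evenly over expression levels. With genes in 5 equal bins by mean RPKM, 17.5% were called in the lowest bin and 70% of the calls were higher, and in the highest bin 42.4% were called and 42.7% of the calls were higher. By GC content the median log2 fold change ran from 0.07 in the bin of lowest GC to 0.00 in the highest. Of 78 tested snoRNA genes 17 were lower and 1 higher (median -0.23), and of 24 tRNA genes 4 were lower (median -0.40). The 5 chromosomes differed little, with 31.1% to 32.9% of genes called.

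Among the tested genes with a position in the RefSeq annotation, 1029 (5.24%) were called with a log2 fold change of at least 0.5 in size. Their median was 1 per window of 100 kb. The windows with most of them were on chromosome 3 from 17300001 to 17400000, with 7 of 19 tested genes, 6 of them higher, and on chromosome 5 from 5200001 to 5300000, the window of DVL1, with 7 of 29, all higher. Windows with 6 followed on chromosome 4 from 9400001 to 9500000, where 1 was higher and 5 lower, AT4G16870 among them, and on chromosome 5 from 2300001 to 2400000, where all 6 were higher.

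Among promoters of 250 bases, the telo box AAACCCTA (TAGGGTTT on the other strand), known from ribosomal protein genes, was found in 5.84% of lowered genes, 2.01% of raised genes and 3.67% of all 19638. The class II TCP site GGNCCC, also searched on both strands, was found in 9.15%, 8.64% and 8.11%, and in 15 of the 109 promoters of genes at least 2-fold higher (13.8%). The G-box CACGTG was found in 6.96%, 7.4% and 7.37%, and the CCA1 site AAAAATCT (AGATTTTT on the other strand) in 6.89%, 6.57% and 6.8%. These shares are descriptions of letters in the windows, without a test.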
